A study of Mus musculus with 8 samples.

Results

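The early growth response genes Egr1, Egr2 and Egr3, the orphan nuclear receptor genes Nr4a1, Nr4a2 and Nr4a3, the immediate early response genes Ier2, Ier3 and Ier5, and Srf were examined in mouse dorsal skin. These 10 genes were taken by name from the 18770 genes measured, and all 10 were found. They were selected on measured values, since the list was proposed with the difference between the groups in these libraries known, so their values in AP and VC are given as a description, with no p-value for any of them.

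The study asked how alpinetin (AP), a plant flavonoid, acts on hair regrowth, and compared RNA from the skin of AP-treated mice with that of mice given vehicle control (VC). All mice were wildtype C57BL/6 males aged 7 to 8 weeks whose back hair had been plucked, which sends resting follicles into growth. The AP group (n = 4 libraries) received 20 µl of alpinetin at 3 mg/ml in 65% ethanol on the skin each day, and the VC group (n = 4 libraries) received the same volume of 65% ethanol, with skin taken at D4 after depilation. The tissue was dermis with its hair follicles, from which the epidermis between follicles had been taken off before RNA extraction.

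Immediate early genes are switched on within minutes of a stimulus, without new protein synthesis, by transcription factors that are already present in the cell. One of these is serum response factor, the product of Srf, which binds the CArG box together with ternary complex factors that are phosphorylated by the ERK kinases, or together with myocardin-related factors that are held back by monomeric actin. Another is CREB, which binds cyclic AMP response elements and drives the Nr4a genes. In skin, these genes answer growth factors, wounding, ultraviolet light and also the handling of tissue.

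The libraries held 6454563 to 7264151 reads on the listed genes in the VC group and 8507783 to 11190113 in the AP group. The 13 mitochondrially encoded genes took 54.3%, 44.9%, 42.1% and 52.3% of the reads in VC libraries 1 to 4, and 11.1%, 7.85%, 5.32% and 10.3% in AP libraries 1 to 4. The share was 48.4% ± 5.81 (SD, n = 4) in VC and 8.66% ± 2.63 (SD, n = 4) in AP (exact two-sided permutation, p = 0.0286, which no result of 4 against 4 libraries can go below, and 0.0952 after adjustment over the 10 values tested this way). Every VC library lay above every AP library, so depth on the remaining genes also differed, with medians of 3534619.5 reads in VC and 8974689.5 in AP. The part of this difference in the values of the 10 genes was not tested. Values below are normalized counts, which are reads divided by a size factor for each library, unless another scale is named.

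A gene was tested when 4 or more of the 8 libraries reached 3 normalized counts. Of the 15964 genes so tested, 1650 were called different between AP and VC by limma at an adjusted p under 0.05, which is 10.3%. Of these, 1011 were higher in AP (6.33% of the genes tested) and 639 were lower. Over all genes tested, the log2 fold change had a median of 0.06. All 10 members passed the filter, and 4 of them were among the genes called higher (2 to 4 with 1 library left out), beside the 6.33% of all genes. Those called were Egr1, Egr2, Nr4a1 and Ier2. The call of Nr4a1 was lost in 6 of 8 fits with a library removed, with voom and without the intensity trend. That of Egr2 was lost in 3 of 8 such fits and without the intensity trend. In 4 members, Egr1, Egr2, Ier2 and Srf, the AP values all exceeded the VC values, beside 10.3% of all genes tested (1641). As the members were chosen with this comparison known, nothing is read from either count. The number of genes called higher was 585 without VC library 1 and 398, 209 and 254 without AP libraries 2, 3 and 4, and the number called lower was 261, 155, 94 and 139 in the same order. The split of 61.3% higher against 38.7% lower became 49.9% against 50.1% with upper-quartile scaling and 49.7% against 50.3% with voom.

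**Figure D1:**
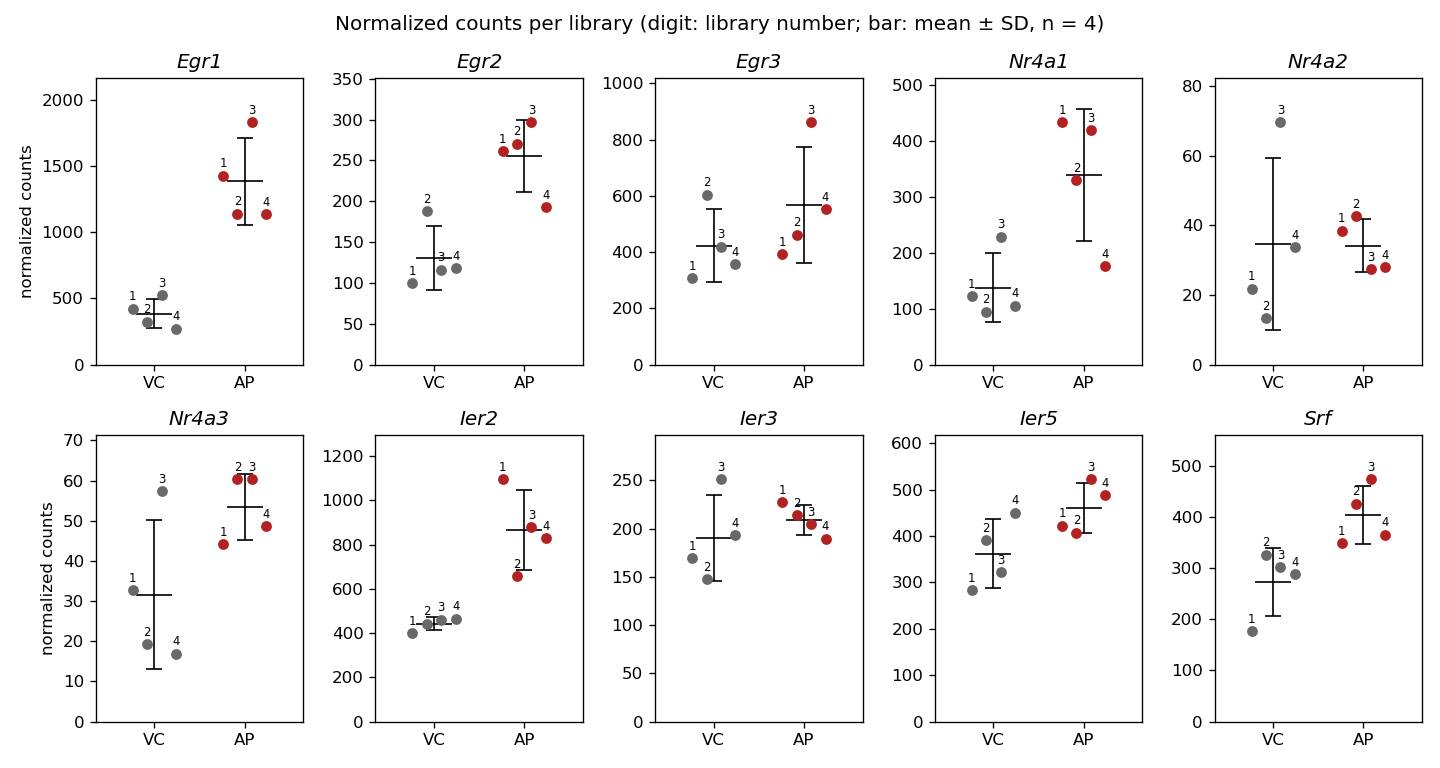
Normalized counts (vertical axis, linear from 0) of the 10 genes in each of the 4 VC (grey) and 4 AP (red) libraries, with digits for the library number and bars for mean ± SD. Egr1 ran from 270.0 to 523 in VC and from 1137 to 1832 in AP, whereas the groups overlapped for Egr3, Nr4a1, Nr4a2, Nr4a3, Ier3 and Ier5.

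The Egr genes encode zinc finger transcription factors that bind GC-rich promoter elements, and Egr1 is the member most broadly induced by growth factors. Egr1 (ENSMUSG00000038418, chromosome 18) had 422, 324, 523 and 270.0 normalized counts in VC libraries 1 to 4 and 1426, 1139.8, 1832 and 1137 in AP libraries 1 to 4. All AP libraries were above all VC libraries, with a wide gap between the highest VC library and the lowest AP library. The means were 385 ± 112 in VC and 1383 ± 328 in AP (SD, n = 4), a ratio of 3.60 and a log2 fold change of 1.86 (SE 0.23). These values rested on at least 144 reads per library.

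Egr2, known for its part in myelinating Schwann cells and in lymphocytes, had 100.05, 188, 116 and 118 normalized counts in VC libraries 1 to 4 and 261, 271, 297 and 193 in the AP libraries. The groups did not overlap, but VC library 2 and AP library 4 nearly met. Its log2 fold change was 0.99 (SE 0.23), with means of 130.5 ± 39.0 in VC and 255 ± 44.2 in AP (SD, n = 4).

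Egr3, which shares the DNA-binding domain of Egr1 and is itself a target of calcium and antigen receptor signalling, had 307, 604, 419 and 358 normalized counts in VC and 392, 462, 862 and 554 in the AP libraries. The groups overlapped, since VC library 2 was above every AP library except AP library 3. The log2 fold change of Egr3 was 0.41 (SE 0.27; 0.18 without AP library 3 and 0.27 without VC library 1), with means of 422 ± 129.7 in VC and 567 ± 207 in AP (SD, n = 4). Egr2, Egr3 and also Srf had the same highest library in each group, VC library 2 and AP library 3, and the same lowest VC library, VC library 1.

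The Nr4a genes encode nuclear receptors without a known physiological ligand, whose activity is set largely by how much of them is made. Nr4a1 (Nur77) had 122, 94.6, 228 and 105 normalized counts in VC libraries 1 to 4 and 433, 329, 418 and 175 in AP libraries 1 to 4. The groups overlapped, because VC library 3 was above AP library 4, while the other AP libraries were higher than any VC library. The means were 137 ± 61.5 in VC and 339 ± 118 in AP (SD, n = 4), with a log2 fold change of 1.30 (SE 0.34).

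Nr4a2 (Nurr1), best known for its role in dopaminergic neurons, had 21.8, 13.3, 69.6 and 33.8 normalized counts in VC and 38.4, 42.6, 27.4 and 27.9 in the AP libraries. The AP libraries lay inside the range of the VC libraries, which was stretched by VC library 3. Counts of Nr4a2 were low, with 9 to 51 reads in the VC libraries and 39 to 79 in the AP libraries. The log2 fold change was 0.20 (SE 0.48) and turned negative with edgeR (-0.043), with DESeq2 (-0.033) and without VC library 2 (-0.15), so that no direction can be given.

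Nr4a3 (Nor1), a close relative of Nr4a1 that is induced alongside it in many cell types, had 32.7, 19.2, 57.3 and 16.9 normalized counts in VC and 44.2, 60.4, 60.3 and 48.6 in the AP libraries. Again the groups overlapped through VC library 3, which was above AP libraries 1 and 4, and the other VC libraries were lower than every AP library. The log2 fold change of Nr4a3 was 0.89 (SE 0.41), from 9 to 42 reads in the VC libraries and 61 to 121 in the AP libraries. VC library 3 was the highest VC library for each of the 3 Nr4a genes.

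The Ier genes are named for their rapid induction and are not a family by sequence, although Ier2 and Ier5 are related to each other and Ier5 takes part in the heat shock factor response. Ier2 had 400.2, 443, 460.2 and 465 normalized counts in VC libraries 1 to 4 and 1097, 657, 878 and 828 in AP libraries 1 to 4. The VC libraries were close together and all AP libraries were above them. The means were 442 ± 29.5 in VC and 865 ± 181 in AP (SD, n = 4), a ratio of 1.96 and a log2 fold change of 0.95 (SE 0.17).

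Ier3, a target of NF-kappaB and p53 that modulates cell survival, had 169, 148, 251 and 193 normalized counts in VC and 227, 214, 205 and 189.5 in the AP libraries. The AP libraries lay within the VC range, and VC library 3 was the highest of all 8. For Ier3 the log2 fold change was 0.16 (SE 0.20; 0.047 without VC library 2 and 0.30 without VC library 3), with means of 190.3 ± 44.6 in VC and 209 ± 15.8 in AP (SD, n = 4).

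Ier5 had 284, 392, 322 and 450.0 normalized counts in VC and 422, 407, 523 and 488 in the AP libraries. The groups overlapped only through VC library 4, which was above AP libraries 1 and 2. The log2 fold change of Ier5 was 0.36 (SE 0.18).

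Srf, the regulator through which many of these genes are induced, had 176, 327, 302 and 289 normalized counts in VC libraries 1 to 4 and 349.6, 426, 475 and 366 in AP libraries 1 to 4. All AP libraries were above all VC libraries, although the highest VC and the lowest AP library were close. The means were 273 ± 66.5 in VC and 404 ± 57.5 in AP (SD, n = 4), with a log2 fold change of 0.59 (SE 0.21; 0.39 without VC library 1).

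The members did not share one order of libraries within a group. In the VC group, library 3 was the highest for 5 members (Egr1, Nr4a1, Nr4a2, Nr4a3 and Ier3), and library 1 was the lowest for 5 others (Egr2, Egr3, Ier2, Ier5 and Srf). In the AP group, library 3 was the highest for Egr1, Egr2, Egr3, Ier5 and Srf, and library 4 was the lowest for Egr1, Egr2, Nr4a1 and Ier3. When total reads were used for scaling, the median over all genes moved to a log2 fold change of 0.90. Relative to the median of all genes, the members lay between 0.10 and 1.80 with the deposited scaling and between 0.12 and 1.83 with total reads.

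Levels of different genes were compared per kilobase of exon. In the VC group, Ier2 was the highest at 290.5 ± 19.4 normalized counts per kilobase (SD, n = 4), followed by Ier3 (168 ± 39.5), Ier5 (110.5 ± 22.5), Egr3 (95.8 ± 29.4), Srf (94.5 ± 23.0), Egr1 (85.8 ± 24.9), Nr4a1 (39.1 ± 17.5), Egr2 (38.4 ± 11.5), Nr4a2 (8.53 ± 6.11) and Nr4a3 (5.27 ± 3.10). The ranges of neighbours in this order overlapped, apart from Ier2 over Ier3 and Egr2 over Nr4a2. In the AP group the order was Ier2 (568 ± 119), Egr1 (309 ± 73.2), Ier3 (185 ± 13.9), Ier5 (140.4 ± 16.7), Srf (139.7 ± 19.9), Egr3 (129 ± 47.1), Nr4a1 (96.5 ± 33.7), Egr2 (75.2 ± 13.0), Nr4a3 (8.92 ± 1.37) and Nr4a2 (8.40 ± 1.88). Here the ranges of Ier2 and Egr1 were separate from each other and from those of all genes after them. Ier3 was separate from Ier5, the next gene, but overlapped Egr3, Egr2 was separate from Nr4a3, and the other neighbours overlapped. Egr1 therefore stood at rank 6 of the 10 in VC and at rank 2 in AP.

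Among all genes tested in a library, Egr1 lay at percentiles 70.2 to 84.3 of the level per kilobase in the VC libraries and at 92.6 to 96.4 in the AP libraries. Ier2 was near the top in either group, at percentiles 92.4 to 94.2 in VC and 96.2 to 97.6 in AP. Nr4a3 was among the low genes, at percentiles 11.2 to 25.3 in VC and 20.1 to 25.5 in AP.

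The balance among the Egr, the Nr4a and the Ier genes was then described as a share of the summed level per kilobase, in which the size factor of a library cancels. Egr1 made up 48.7%, 27.3%, 47.4% and 34.2% of the 3 Egr genes in VC libraries 1 to 4 and 65.7%, 58.0%, 59.1% and 58.1% in AP libraries 1 to 4. Its share was higher in all AP libraries than in any VC library. Egr3 made up 36.1%, 51.8%, 38.7% and 46.1% in the VC libraries and 18.4%, 23.9%, 28.3% and 28.8% in the AP libraries, lower in all AP libraries than in any VC library. The share of Egr2 overlapped between the groups, at 17.4% ± 3.39 in VC and 14.9% ± 2.59 in AP (SD, n = 4).

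Nr4a1 was the main Nr4a gene in every library, with 76.2%, 80.6%, 70.9% and 72.9% of the 3 Nr4a genes in the VC libraries and 88.0%, 82.0%, 87.6% and 76.9% in the AP libraries. These ranges overlapped, with AP library 4 below VC library 2. Ier2 made up 52.7%, 53.8%, 48.5% and 49.8% of the 3 Ier genes in the VC libraries and 68.6%, 57.9%, 62.9% and 63.2% in the AP libraries. Here the groups were apart, Ier2 taking more in every AP library.

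**Figure D2:**
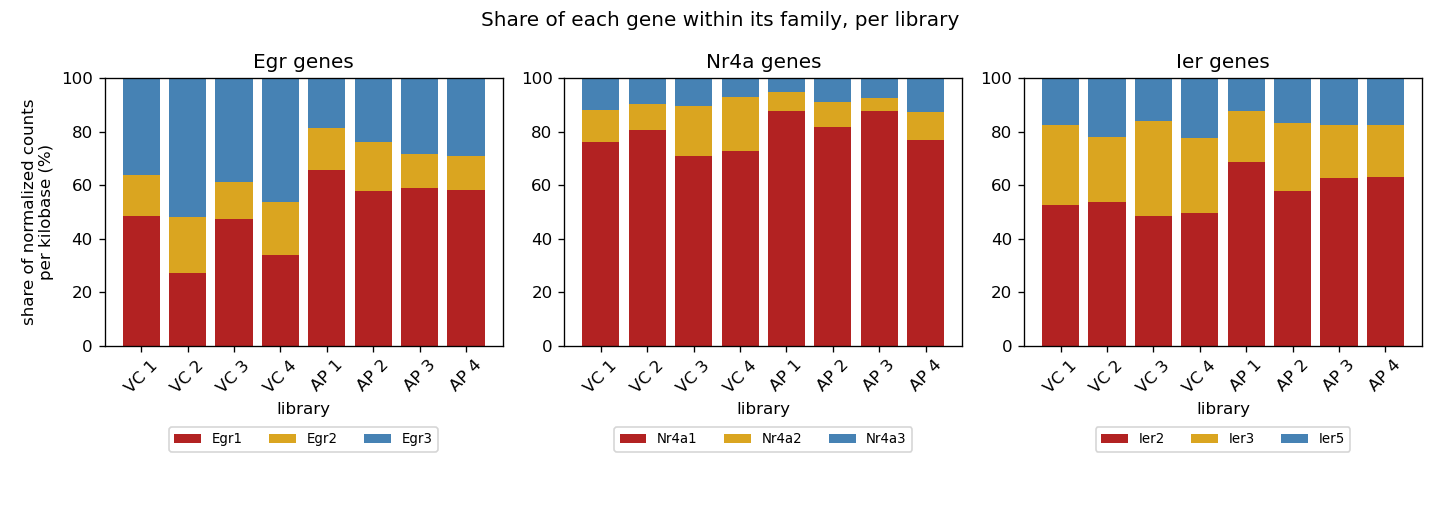
Share (%) of each gene in the summed normalized counts per kilobase of its family (vertical axis, 0 to 100) in VC libraries 1 to 4 and AP libraries 1 to 4, stacked by gene. Egr1 took 27.3% to 48.7% of the Egr genes in VC and 58.0% to 65.7% in AP, and Nr4a1 took most of the Nr4a level in all 8 libraries.

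Other genes of the same response and of the pathways leading to it were read from lists, each described by its count and its median. The lists were written with earlier results of these data known, so their counts are a description. Each count of genes called higher by limma stands beside 6.33% of all genes tested. Of 24 other immediate early genes, 23 were tested (Npas4 was not), and 12 were called higher in AP by limma (9 to 16 with 1 library left out). Their median log2 fold change was 1.19, beside 0.06 for all genes and 0.74 for the 10 members. Fos, which pairs with Jun proteins to form AP-1, had 287, 269, 468 and 317 normalized counts in VC and 2384, 1615, 2089.6 and 1728 in the AP libraries. The log2 fold change of Fos was 2.56 (SE 0.20, limma adjusted p = 6.34e-04). Fosb had 23.6, 32.5, 79.2 and 28.1 normalized counts in VC and 471, 284, 512 and 253 in AP, with a log2 fold change of 3.29 (SE 0.38, limma adjusted p = 0.00231). For Fos and Fosb, as for Egr1, the groups did not overlap and VC library 3 was the highest VC library.

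Dusp1, a phosphatase that turns off MAP kinases, had a log2 fold change of 2.12 (SE 0.29, limma adjusted p = 0.00435), and Junb, the most abundant gene of the list per kilobase, one of 1.83 (SE 0.21, limma adjusted p = 0.00231). Socs3, an inhibitor of cytokine signalling, rose by a log2 fold change of 1.83 (SE 0.36, limma adjusted p = 0.0152), a call that was lost without AP library 3 (adjusted p = 0.0517) and with limma without its intensity trend. Over the 21 alternatives the adjusted p of Socs3 ran from 7.59e-04 to 0.0517.

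**Figure D3:**
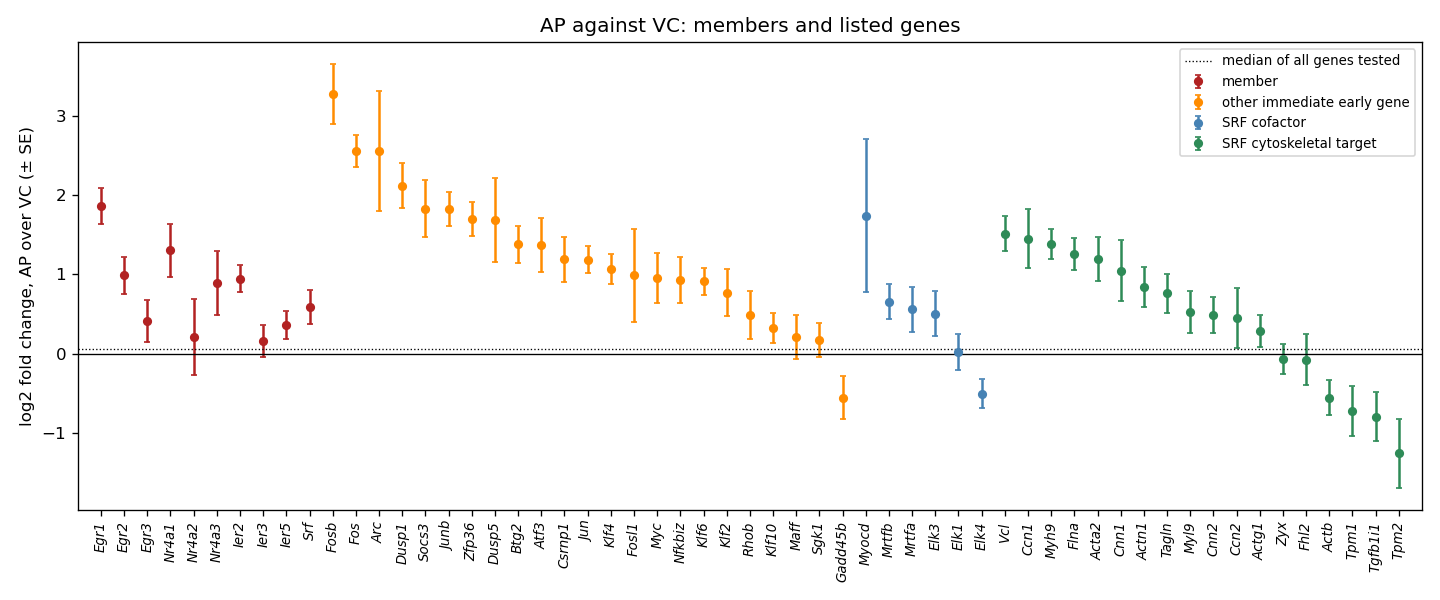
Log2 fold change of AP over VC ± SE (vertical axis) for the 10 members (red), the other immediate early genes (orange), the SRF cofactors (blue) and the SRF cytoskeletal targets (green), with the median of all genes tested at 0.06 as a dotted line. Fosb (3.29) and Fos (2.56) lay above Egr1 (1.86), and Nr4a2 (0.20) and Ier3 (0.16) lay nearest to 0 among the members.

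Of the 6 genes for cofactors that act together with the Srf protein, 2 had an unadjusted limma p under 0.05. None of the 6 was called by limma, edgeR or voom, and 1 was called by DESeq2. The median log2 fold change of the 6 was 0.53, with 5 of 6 above 0. Elk4, a ternary complex factor and the most abundant of them, was the exception and had a log2 fold change of -0.51 (SE 0.19), which limma called only without VC library 4 and with a length trend removed. Of 14 tested genes of the ERK cascade, which phosphorylates these factors, 2 were called higher by limma, and 0 without AP library 2, 3 or 4 or without the intensity trend. Their median log2 fold change was 0.12 (-0.064 with a length trend removed and 0.057 with upper-quartile scaling or without AP library 3). This median was 0.067 with reads drawn down and 0.19 without AP library 1. Rps6ka3 (RSK2) had a log2 fold change of 0.84 (SE 0.17, limma adjusted p = 0.0175), whereas Mapk3 (ERK1), the most abundant gene of the list, had one of -0.24 (SE 0.13) and was not called by limma. The call of Rps6ka3 was lost without AP library 2, 3 or 4 and without the intensity trend (adjusted p over the 21 alternatives from 5.17e-04 to 0.0574). Of 8 genes for CREB and its coactivators, which act on the Nr4a promoters, Ep300, a histone acetyltransferase, was called higher (log2 fold change 1.07, SE 0.23, limma adjusted p = 0.0198), and the median was 0.16 (-0.082 with a length trend removed, 0.10 with upper-quartile scaling, 0.091 without VC library 1 and 0.30 without VC library 3). The call of Ep300 was lost without AP library 2, 3 or 4, with a length trend removed and without the intensity trend (adjusted p over the 21 alternatives from 5.60e-04 to 0.0704). Atf1, the most abundant of these genes, had a log2 fold change of -0.23 (SE 0.15).

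Of 18 cytoskeletal and matricellular genes known as Srf targets, 5 were called higher by limma (3 to 6 with 1 library left out). The median log2 fold change was 0.51, with 12 of 18 above 0. Limma called 0 lower (2 without AP library 1), with 4 lower at an unadjusted p under 0.05 and 2 lower by DESeq2. Vcl (vinculin) had 186, 231, 233 and 144 normalized counts in VC and 424, 782, 567 and 521 in the AP libraries, a log2 fold change of 1.52 (SE 0.22, limma adjusted p = 0.00645). Its groups did not overlap, as was the case for Myh9, the heavy chain of nonmuscle myosin (log2 fold change 1.38, SE 0.19, limma adjusted p = 0.00513), and Flna, an actin crosslinker (log2 fold change 1.26, SE 0.20, limma adjusted p = 0.00884). Ccn1, a matricellular protein, had a log2 fold change of 1.45 (SE 0.37, limma adjusted p = 0.0344), a call lost without VC library 1, 2 or 4 or AP library 1, 2 or 3 and without the intensity trend (adjusted p over the 21 alternatives from 0.00105 to 0.0955). Actb, the most abundant gene of this list, had a log2 fold change of -0.56 (SE 0.22) and was not called by limma, but was lower by DESeq2 (adjusted p = 0.0153, and over the 21 alternatives from 0.0153 to 0.254).

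Downstream, 8 genes reported as targets of Egr1 had a median log2 fold change of 0.26 (0.13 without VC library 2). Limma called 2 of them higher, and 0 without AP library 2, 3 or 4. Pdgfb, a growth factor subunit, had a log2 fold change of 1.35 (SE 0.35, limma adjusted p = 0.0342). Its call was lost without VC library 1 or 2 or AP library 2, 3 or 4 and without the intensity trend (adjusted p over the 21 alternatives from 0.00129 to 0.0955). Cd44, the most abundant of the targets, had a log2 fold change of 0.06 (SE 0.21). Among 6 tested partners and relatives of the members (Nab1 and Nab2, which repress Egr proteins, the retinoid X receptors that pair with Nr4a1 and Nr4a2, and Ier5l), none was called by limma, with 2 at an unadjusted p under 0.05 and 0 by edgeR, voom or DESeq2. Their median log2 fold change was -0.27 (0.60 with total reads and -0.15 without AP library 1), with 2 of 6 above 0. Rxra, the most abundant of these and 1 of those 2, had a log2 fold change of 0.43 (SE 0.17).

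The 5 genes outside the members whose levels most resembled the mean standardized log2 level of the members over the 8 libraries were AW549877 (Pearson r = 0.98), Fosb (0.97), Arel1 (0.97), Hps3 (0.97) and Slc44a1 (0.96), out of 11249 genes with a mean of at least 50 normalized counts. The 8 points share the group difference, the depth difference and the mitochondrial share. Within the groups, after group means had been subtracted, r was 0.92, 0.92, 0.90, 0.95 and 0.83 in the same order. As the genes were picked by their r over these same libraries, neither set of r values tests their likeness to the members. Arel1, a ubiquitin ligase, had 78.2, 112, 150.2 and 91.9 normalized counts in VC and 202, 198, 214 and 144 in the AP libraries, so that VC library 3 was again above AP library 4, as for Nr4a1.

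Markers of cell types were set beside the members. Dermal fibroblast and hair follicle markers, which define the labelled tissue, were present in every library, with Col1a1 between 21330.1 and 84986 and Krt17 between 3017 and 10607 normalized counts. Although the epidermis between follicles had been taken off, markers of the suprabasal epidermis were measured as well. Of the 10 markers, 8 were called higher in AP by limma (6 to 9 with 1 library left out), with a median log2 fold change of 2.90, and none was at 0 in all libraries. Their summed level was 5730.05, 12568, 8523 and 5764 normalized counts in VC libraries 1 to 4 and 37014, 38199, 100301 and 149939 in AP libraries 1 to 4 (two-sided exact permutation p = 0.0286, adjusted p = 0.0952 over 10 values). AP library 4, with the most suprabasal marker RNA, was the lowest AP library for Egr1, Egr2, Nr4a1 and Ier3. AP library 3, which came next for these markers, was the highest AP library for Egr1, Egr2, Egr3, Ier5 and Srf and the lowest for Nr4a2. In these bulk samples, more cells of a type and more RNA per cell cannot be told apart.

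Within that list, Krt10, the most abundant marker, had a log2 fold change of 3.85 (SE 0.50, limma adjusted p = 0.00367), Krt1 one of 3.46 (SE 0.54, limma adjusted p = 0.00843) and Flg one of 3.22 (SE 0.60, limma adjusted p = 0.0130). Lor had one of 3.001 (SE 0.80, limma adjusted p = 0.0386), a call lost in 7 of 8 fits with a library removed, all but that without AP library 2, and without the intensity trend (adjusted p over the 21 alternatives from 3.31e-04 to 0.112). Of 5 endothelial markers, 2 were called higher by limma (0 without the intensity trend and 1 to 3 with 1 library left out), with a median log2 fold change of 1.44. Their summed level was 720.3, 562, 1064 and 1223 in the VC libraries and 1886, 4786, 1678 and 1777 in the AP libraries (two-sided exact permutation p = 0.0286, adjusted p = 0.0952 over 10 values). Pecam1, the most abundant, had a log2 fold change of 1.44 (SE 0.31, limma adjusted p = 0.0198), lost without the intensity trend, and Cdh5 one of 1.75 (SE 0.47, limma adjusted p = 0.0386), lost without VC library 1 or 2 or AP library 2, 3 or 4 and without the intensity trend. Over the 21 alternatives the adjusted p ran from 3.97e-04 to 0.0608 for Pecam1 and from 0.00151 to 0.0949 for Cdh5. None of the endothelial markers was at 0 in all libraries. AP library 2, highest for these markers, was the lowest AP library for Ier2 and Ier5 and the highest for Nr4a2 and Nr4a3. The part of either cell type in the values of the members was not tested.

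Coordinates of the genes are those of mm10. Egr2 lies at chr10:67535475-67542188, Egr3 at chr14:70077203-70082614, Nr4a1 at chr15:101254269-101274795, Nr4a3 at chr4:48045153-48086447 and Ier3 at chr17:35821684-35822923, all on the plus strand. Nr4a2 at chr2:57106830-57124003, Ier2 at chr8:84661331-84662852, Ier5 at chr1:155096361-155099636 and Srf at chr17:46548329-46556175 are on the minus strand. No member shares exon bases with another annotated gene. Ier2 and Ier5 have a single exon.

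Promoter sequences, from 250 bases before to 50 after the start of transcription, were matched in RefSeq (GRCm38.p6) for 7 of the 10 members, all but Egr1, Egr3 and Ier2. They were searched on both strands for the CArG box, for the cyclic AMP response element TGACGTCA and its shorter form TGACG (which the longer one contains), for the Egr element GCGTGGGCG and for the Nr4a element AAAGGTCA. The CArG box was in the promoters of Egr2 and Srf, 2 of 7 members, beside 1.81% of 27025 genes. TGACG was in those of Egr2, Nr4a1, Nr4a2, Nr4a3 and Srf, 5 of 7 members, beside 23.0% of genes. TGACGTCA, GCGTGGGCG and AAAGGTCA matched in none of the 11 windows of these 7 genes, 5 of which belong to Egr2, beside 2.03%, 0.707% and 1.70% of genes. A match describes letters and not binding.

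The CArG boxes are shown in capitals, as the element that the Srf protein is known to bind. All stretches lie before the annotated start used, outside exons, and are written on the strand of the gene. The stretch of Srf is chr17:46556200-46556259 (minus strand) and those of Egr2, from promoters of different starts, are chr10:67537479-67537518 and chr10:67537782-67537821 (plus strand). The last one also holds a TGACG match on the opposite strand, left in lower case.
Srf: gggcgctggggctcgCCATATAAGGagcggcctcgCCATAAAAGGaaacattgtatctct
Egr2, upstream start: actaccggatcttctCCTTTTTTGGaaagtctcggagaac
Egr2, downstream start: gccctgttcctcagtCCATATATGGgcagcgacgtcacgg

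Each Nr4a promoter held 4 TGACG matches, which are in capitals on either strand (TGACG or CGTCA). The stretches are chr15:101266598-101266825 for Nr4a1 (plus strand), chr2:57124095-57124218 for Nr4a2 (minus strand) and chr4:48045059-48045119 for Nr4a3 (plus strand). For Nr4a3, 3 of the 4 matches are shown, as the other is in an annotated exon. The 3 genes hold this short element, as do 23.0% of genes. Their log2 fold changes were 1.30 (SE 0.34), 0.20 (SE 0.48) and 0.89 (SE 0.41), and any part of the element in these was not tested.
Nr4a1: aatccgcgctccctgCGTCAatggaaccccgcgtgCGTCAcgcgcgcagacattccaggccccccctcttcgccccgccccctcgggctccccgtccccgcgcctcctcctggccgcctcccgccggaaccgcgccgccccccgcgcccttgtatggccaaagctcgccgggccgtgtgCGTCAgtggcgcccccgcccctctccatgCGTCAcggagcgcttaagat
Nr4a2: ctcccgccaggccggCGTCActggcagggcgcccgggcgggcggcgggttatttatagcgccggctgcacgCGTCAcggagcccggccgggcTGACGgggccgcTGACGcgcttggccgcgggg
Nr4a3: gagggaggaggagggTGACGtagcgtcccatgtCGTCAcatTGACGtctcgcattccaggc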

How the data were processed

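RNA-seq libraries from 4 AP and 4 VC mice were used, grouped by the treatment in the labels; library numbers are those of the deposited columns, which were tied to a group and not to a single mouse. Per the methods and processing notes, the authors aligned cleaned reads to mm10 with STAR, counted them per gene (the methods name featureCounts, the processing notes HTSeq; versions are not given in the sources used here) and ran DESeq2. The deposited signal values are read counts divided by a DESeq2 size factor per library. All 150160 values were whole multiples of 1 step per library within 0.001 reads, so reads were recovered. The authors' comparison columns (mean, log2 fold change, its standard error, test statistic, p-value and adjusted p-value) were not used.

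Here, limma (3.58.1, R 4.3.3) with an intensity trend was fitted to log2(normalized count + 1), which understates changes of low genes, for genes that reached 3 normalized counts in 4 or more libraries, with Benjamini-Hochberg adjustment over all 15964 genes and calls at an adjusted p under 0.05. An exact permutation test over the 70 assignments served for single values. Alternatives were pseudocounts of 0.5 and 5, no filter, a mean of at least 10, no trend, voom, edgeR (4.0.16) and DESeq2 (1.42.0) on recovered reads (edgeR called 1003 genes higher and 712 lower), other scalings, reads drawn down to the smallest total without mitochondrial genes, a loess length trend (span 0.3) removed and each library left out. The fits were tested on simulated data. Counting error weighs most on Nr4a2 and Nr4a3, which fell to 9 reads in a library. Exon lengths and coordinates are from GENCODE M21, in which all 18770 identifiers were found. Members and gene lists were chosen with earlier results of these data known. Named list genes are up to 4 called genes per list with the largest absolute log2 fold change and the most abundant gene per kilobase, of which 2 are not reported here; genes resembling the members are the 5 with the highest Pearson correlation.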

Additional observations from a re-analysis of the deposited data

Results flagged for a closer look

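In 6 of 72 groups of 4 libraries examined (the members, their family shares, the mitochondrial share and the summed lists), 1 library lay far from the other 3 relative to the range of its group; chance does this in about 1 in 20 groups. Egr1 took 65.7% of the Egr genes in AP library 1, against 58.0% to 59.1% in the other AP libraries. Ier3 took 25.4% of the Ier genes in AP library 2, above the other AP libraries, and Ier5 took 12.3% in AP library 1, below them. The summed partners and relatives of the members were lowest in VC library 4 (2580.02 normalized counts). Endothelial markers summed to 4786 normalized counts in AP library 2, and skeletal muscle markers to 50305 in AP library 1, each far above the other AP libraries. No member itself had such a library in either group. The median log2 fold change of the members, 0.74 with all libraries, was 0.74 without AP library 1, 0.70 without AP library 2 and 0.64 without VC library 4.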

How the results depend on the processing

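Compared with 1011 genes called higher and 639 lower, limma without its intensity trend called 376 and 216, DESeq2 1677 and 1362, scaling by total reads 8657 and 70, and removal of the length trend 673 genes higher; with 1 library left out the counts ran from 209 to 1082 and from 94 to 817. Genes whose AP libraries were all above VC numbered 7902, and all below 66, with total reads. Of the members, 2 were called higher without the trend, 9 with total reads, and 2 to 4 with 1 library left out. Total reads moved the log2 fold changes of Egr1, Egr2 and Egr3 to 2.73, 1.85 and 1.28, of Nr4a1, Nr4a2 and Nr4a3 to 2.17, 1.04 and 1.74, of Ier2, Ier3 and Ier5 to 1.81, 1.02 and 1.23 and of Srf to 1.46, along with the median of all genes (0.90). Nr4a2 turned to -0.043 with edgeR, -0.033 with DESeq2 and to between -0.15 (without VC library 2) and 0.62 with 1 library left out; the cause was not tested. The other members kept a positive log2 fold change in all 21 alternatives.

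With total reads the median log2 fold change became 1.60 for the members, 1.40 for SRF cofactors, 1.38 for cytoskeletal targets, 1.03 for CREB genes (-0.082 with the length trend removed), 0.60 for partners, 1.13 for Egr1 targets, 2.05 for other immediate early genes and 0.99 for the ERK cascade (-0.064 with the length trend removed). For markers it became 1.15 in fibroblasts, 1.12 in hair follicle, 3.77 in suprabasal epidermis, 1.94 in basal keratinocytes, 0.35 in leukocytes, 2.31 in endothelium, -0.93 in skeletal muscle, 1.09 in adipocytes (-0.27 to 0.57 with 1 library left out) and 1.59 in red blood cells (0.38 with reads drawn down, and 0.29 to 1.01 with 1 library left out). For the called list genes taken by the naming rule, 416 refits kept the call and 67 lost it, all in the same direction. Promoter counts of the members were the same with only the bases before the start. No paired analysis was possible because the groups share no replicate numbers. Low counts limit Nr4a2 and Nr4a3.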

Other observations

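Other cell types of skin were measured in the same libraries. Of 6 markers of basal keratinocytes, 3 were called higher in AP by limma (Itga6, log2 fold change 1.92, SE 0.31, adjusted p = 0.00896; Col17a1, 1.73, SE 0.42, adjusted p = 0.0298; Itgb4, 1.11, SE 0.31, adjusted p = 0.0425), and 1 to 3 with 1 library left out, with a list median of 1.07, while Krt14, the most abundant, had 1.02 (SE 0.53). The call of Col17a1 was lost without VC library 1 or 4 or AP library 3 or 4 and without the intensity trend (adjusted p over the 21 alternatives from 0.00161 to 0.0917). The call of Itgb4 was lost without VC library 1 or 4 or AP library 2, 3 or 4, without the trend, with the length trend removed, with edgeR and with total reads without mitochondrial genes (from 0.00192 to 0.118). The summed level of this list ran from 21902 to 78090 normalized counts in VC and from 49171 to 138232 in AP (two-sided exact permutation p = 0.143, adjusted p = 0.238). In the red blood cell list, Hbb-bs, an adult beta globin that is nearly identical to Hbb-bt, so that reads may be split between them, and the most abundant of 5, had a log2 fold change of 1.24 (SE 0.28, limma adjusted p = 0.0231), lost without VC library 1 or AP library 2 or 4 and without the trend (from 9.62e-04 to 0.0657), and the sums had an exact permutation p of 0.200 (adjusted p = 0.286). The median of this list was 0.94 (0.29 without VC library 1 and 0.53 without AP library 2), with 1 of 5 called by limma and 4 of 5 above 0. The exception, Hba-a2, had -0.81 (SE 0.29) and was not called by limma, but was lower by DESeq2 (adjusted p = 0.0396).

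The log2 fold changes of the 6 skeletal muscle markers, which are differences of mean log2 values, were all below 0, with a median of -1.80, but limma called 0 of 6, with 5 at an unadjusted p under 0.05, 0 by edgeR or voom and 0 by DESeq2 among the 4 to which it gave an adjusted p. Without AP library 1, limma called all 6 lower, with a median of -2.50. Their sums were 38140, 56213, 28460 and 30525 normalized counts in VC libraries 1 to 4 and 50305, 7281, 4338 and 9573 in AP libraries 1 to 4, so that AP library 1 stood with the VC libraries (two-sided exact permutation p = 0.143, adjusted p = 0.238). Of 7 leukocyte markers tested, limma called 0, with 2 higher and 3 lower at an unadjusted p under 0.05. It called 1 lower without VC library 2, 1 lower without VC library 3 and 1 higher without AP library 1. Calls by edgeR or voom numbered 0, and DESeq2 called 1 higher (S100a8) and 2 lower (Adgre1 and Lyz2). The median log2 fold change of the leukocyte markers was -0.50 (0.35 with total reads, -0.84 without AP library 1 and -0.31 without AP library 4). Their sums had an exact permutation p of 0.0857 (adjusted p = 0.214). Of 8 fibroblast markers limma called 0 (1 higher and 1 lower at an unadjusted p under 0.05, and 1 lower, Twist2, by each of edgeR, voom and DESeq2 and by limma without VC library 2 or AP library 1; median 0.28, from 0.078 without AP library 1 to 0.56 without VC library 4; sums, exact permutation p = 0.343, adjusted p = 0.381). Of 8 hair follicle markers limma called 0, with 0 at an unadjusted p under 0.05 and 0 by edgeR, voom or DESeq2. Their median was 0.25 (0.053 without VC library 4 and 0.12 without AP library 3). The sums of the hair follicle markers had an exact permutation p of 0.229 (adjusted p = 0.286). Of 5 adipocyte markers limma called 0 (1 at an unadjusted p under 0.05 and 0 by edgeR, voom or DESeq2; median 0.23, but -0.17 without VC library 2 and -0.27 without AP library 2; sums, exact permutation p = 0.943, adjusted p = 0.943). Hba-a2, S100a8, Adgre1 and Twist2 were named after their values were seen. The part of these cell types in the levels of the immediate early genes was not tested.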
